A study of Mus musculus with 16 samples.

Results

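Sox2, Nkx6-3, Foxq1, Tff1, Tff2, Muc6, Gkn3, Ctse, Cblif and Vsig1 are 10 mouse genes that are best known from the stomach. They were chosen by symbol with earlier results of these data in view, among them levels in adenoma cells, and which values decided the choice is not recorded. Their adenoma levels are therefore given as a description with no test. Together they are 10 of the 22180 genes with a probe set of 1 symbol, and they were read from 11 probe sets, 1 each and 2 for Foxq1. All 10 passed the filter on dim genes, and every one had its highest group mean in the same group of adenoma cells, so passing the filter says nothing further about them.

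The lining of the stomach is made by mucous surface and neck cells, acid-secreting parietal cells and enzyme-secreting chief cells. Surface cells secrete the trefoil peptide Tff1 and the mucin Muc5ac, and mucous neck and gland cells secrete Tff2 and Muc6. In the embryonic gut tube the transcription factor Sox2 marks the foregut, from which oesophagus and stomach form, while Cdx2 marks the future intestine, and in mice loss of Cdx2 lets stomach genes appear in intestinal epithelium.

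The series profiled cells of the mouse small intestine, strain C57Bl/6, labelled male, from animals of 8 to 10 weeks, on 16 microarrays of 1 colour. Apc+/1638N adenoma cells came from mice with the 1638N allele in 1 copy of the tumour suppressor gene Apc, on 6 arrays of 4 mice. The titles of 2 of these mice, P21 (2 arrays) and P23, carry the tag T2, and those of the other 2, P34 (2 arrays) and P36, do not. What the tag stands for and how the adenoma cells were grown, the labels do not say, so the tag cannot be told apart from anything else that differed between these pairs of animals. The wild-type samples were organoids, small self-organising cultures grown from intestinal crypts, profiled after 24 h below an insert carrying wild-type intestinal myofibroblasts (co-culture, mice P28 and P30) and alone (monoculture, the same 2 mice). They are called epithelium below. The insert had pores of 0.4 µm. The myofibroblasts were profiled in co-culture and in monoculture, from the same 3 mice each (Pl_I, Pl_II and Pl_III).

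Levels below are log2 RMA levels, and a difference of 1 is a 2-fold change. Array medians lay between 3.48 and 3.58, and the dim level used as a filter was 2.67. Probe sets bind unequally, so levels are compared between samples and never between genes. The repeat arrays of P21 and P34 are technical, and over the 10 genes they differed at most by 0.71 in P21 and by 0.89 in P34. The arrays of P28 and Pl_III go against their labels: all animals are labelled male, but these 4 cultures had Xist, which is made from an inactive X chromosome, at 7.57 to 8.29, against 1.87 to 2.81 in the other 10 samples, and the Y-linked Eif2s3y at 2.53 to 3.20, against 7.37 to 8.46. Values without them, an alternative chosen after seeing the data, are given for Vsig1, Ctse and Foxq1. They are also given for named genes outside the 10 if they changed a printed call or moved a printed called difference over 1.5 times. Without P28 only P30 is left in each epithelial group. Such values and calls that involve epithelium therefore hold no spread between epithelial animals. Neither P28 nor Pl_III is an adenoma animal, so the adenoma means stay the same without them. Calls between the adenoma groups can still change, because the spread is pooled over all groups.

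Promoter windows of 300 bases, from 250 before to 50 after the RefSeq start, were available here for Sox2, Gkn3, Cblif, Vsig1 and Muc6 (mouse build GRCm38.p6). Since Sox2 is itself among the genes and binds DNA, they were searched on both strands for ACAAAG and ACAATG, hexamers that SOX proteins can bind, and the 4 windows that hold at least 1 of them are shown. The hexamers are in capitals, written as they read on the strand of the gene.
Sox2 (chr3:34649745-34650044, plus strand): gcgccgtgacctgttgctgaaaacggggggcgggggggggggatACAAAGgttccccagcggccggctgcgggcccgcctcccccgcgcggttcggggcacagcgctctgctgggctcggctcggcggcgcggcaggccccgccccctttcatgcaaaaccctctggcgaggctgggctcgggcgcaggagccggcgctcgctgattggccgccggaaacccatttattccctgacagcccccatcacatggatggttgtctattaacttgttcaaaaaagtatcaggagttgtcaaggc
Gkn3 (chr6:87388886-87389185, minus strand): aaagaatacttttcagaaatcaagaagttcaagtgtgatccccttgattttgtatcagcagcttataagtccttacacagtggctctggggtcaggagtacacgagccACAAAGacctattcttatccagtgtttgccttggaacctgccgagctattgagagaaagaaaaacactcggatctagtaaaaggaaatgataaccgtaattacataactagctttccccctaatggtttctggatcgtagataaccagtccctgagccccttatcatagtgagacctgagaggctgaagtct
Cblif (chr19:11747309-11747608, plus strand): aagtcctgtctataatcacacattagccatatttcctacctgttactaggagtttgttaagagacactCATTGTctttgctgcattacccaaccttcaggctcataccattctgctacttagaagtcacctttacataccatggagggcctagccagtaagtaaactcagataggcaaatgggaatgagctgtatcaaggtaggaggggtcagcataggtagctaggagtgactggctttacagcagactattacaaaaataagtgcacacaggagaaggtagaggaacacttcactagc
Vsig1 (chrX:140907358-140907657, plus strand): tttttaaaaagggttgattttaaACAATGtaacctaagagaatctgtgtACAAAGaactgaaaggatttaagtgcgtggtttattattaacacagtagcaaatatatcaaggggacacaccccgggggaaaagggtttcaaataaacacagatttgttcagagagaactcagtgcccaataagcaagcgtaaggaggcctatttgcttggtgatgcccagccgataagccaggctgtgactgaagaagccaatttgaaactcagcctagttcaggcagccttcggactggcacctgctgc
ACAAAG was found in 3 of the 5 windows, those of Sox2, Gkn3 and Vsig1, and in 18.7% of the 32851 RefSeq windows of this length. ACAATG was found in 2 of the 5, on the opposite strand in that of Cblif, and in 12.6% of all windows. At least 1 of both was found in 4 of the 5 windows and in 28.6% of all. The GATA core AGATAA was found in the windows of Gkn3 and Muc6 and in 11.2% of all, the FOX core GTAAACA in 0 of the 5 and in 3.6%, and the CDX core TTTATNG in 0 of the 5 and in 10.9%. No match in these 5 windows overlapped another. These are matches of letters in 5 short windows, not binding sites.

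**Figure D1:**
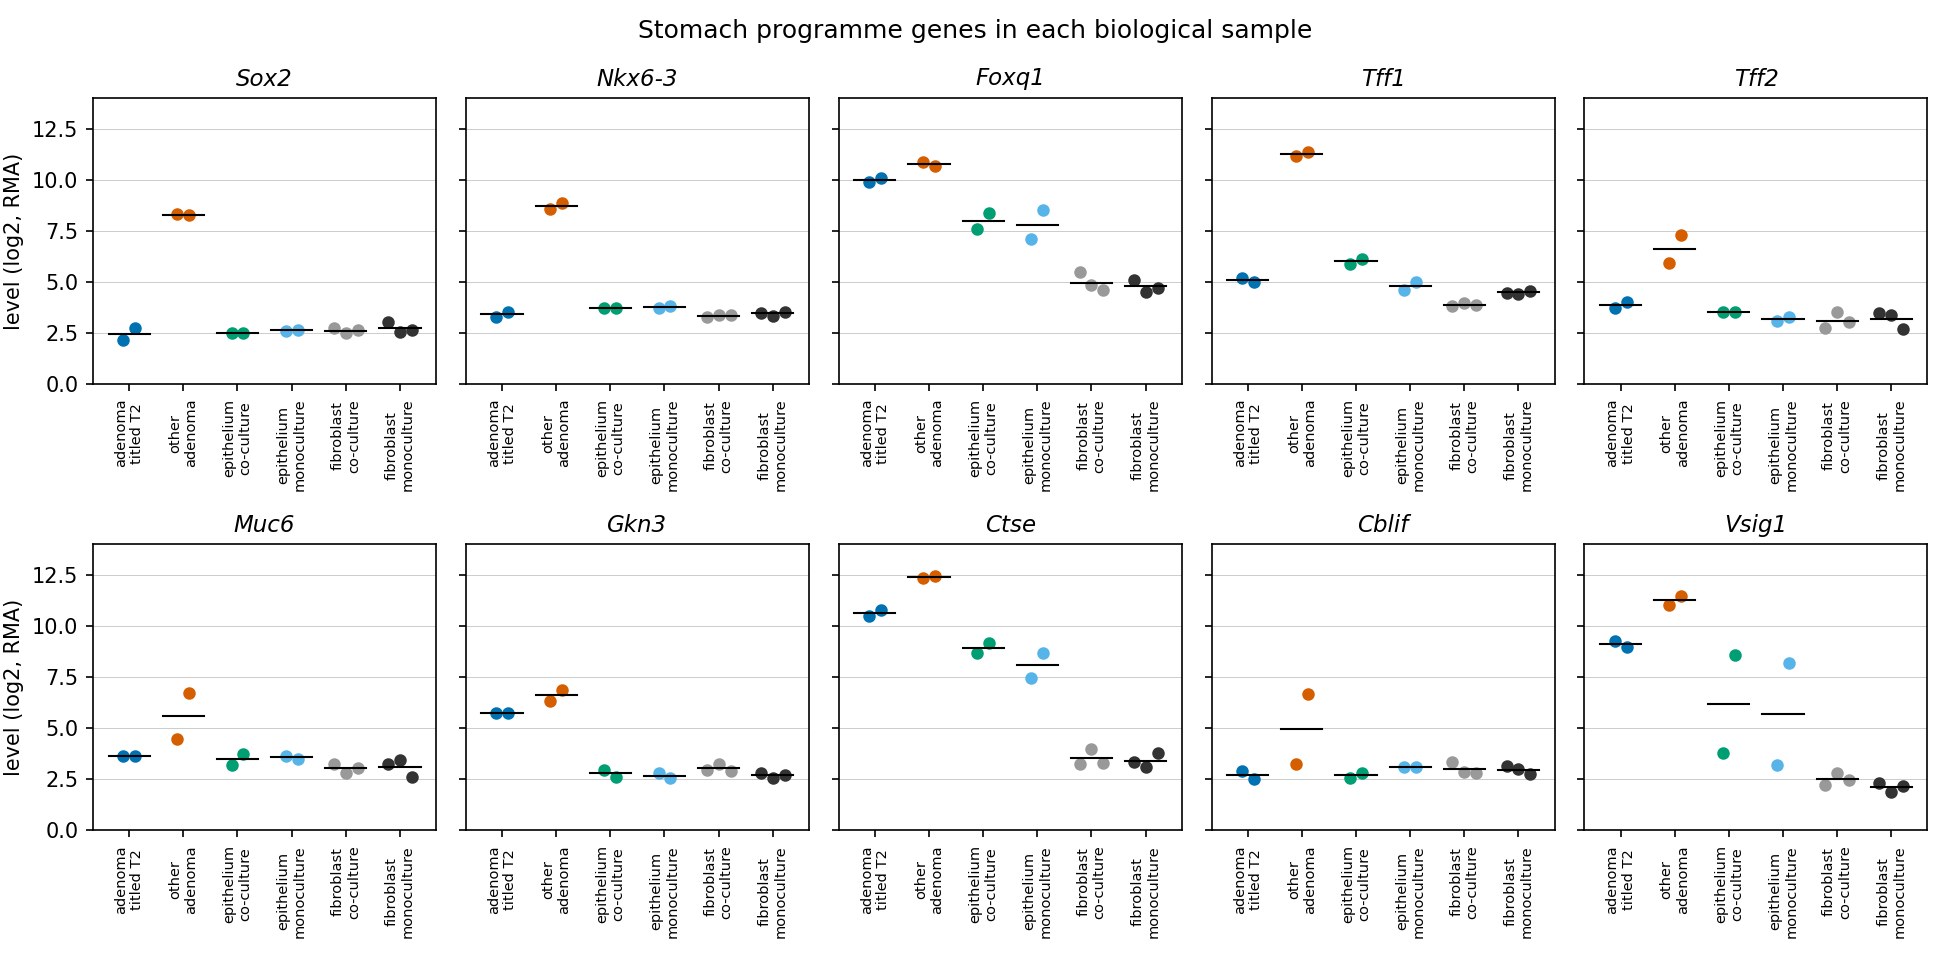
Levels of the 10 genes (vertical axes, log2 RMA) in each of the 14 biological samples, with technical repeats averaged, by group (horizontal axes). Points are animals and lines are group means. Every gene had its highest mean in the adenoma cells without the T2 tag, while Ctse, Vsig1, Gkn3 and Foxq1 also lay higher in T2 adenoma cells than the mean of monocultured epithelium.

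The 10 genes can be described as 6 that stood near monocultured epithelium in T2 adenoma cells and 4 that stood above it in both adenoma groups. Sox2, Nkx6-3, Tff1, Tff2, Muc6 and Cblif differed from monocultured epithelium by at most 0.67 in T2 adenoma cells, and by 1.83 to 6.43 in the other adenoma cells. Ctse, Vsig1, Gkn3 and Foxq1 differed from it by 2.18 to 3.40 in T2 adenoma cells and by 2.98 to 5.54 in the other adenoma cells. In T2 adenoma cells the difference of Vsig1 was 0.91 against P30 alone, and that of Foxq1 was 0.46 on its 2nd probe set. Both adenoma groups were set against the same 2 monocultures, and the 6 and the 4 were told apart after the values were seen.

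Among the 3 transcription factors, Sox2, the foregut and stem cell factor, had 2.46 and 1.82 (P21) and 2.77 (P23) in T2 adenoma cells, against 8.28 and 8.36 (P34) and 8.28 (P36) in the other adenoma cells. It had 2.49 and 2.52 in co-cultured epithelium, against 2.60 and 2.66 in monocultured epithelium. In the 6 fibroblast samples it lay between 2.50 and 3.06. P34 and P36 thus stood more than 5 above every other sample, and the group means of T2 adenoma cells and of all wild-type cultures lay at or near the dim level. The measured difference was -5.84 between T2 and other adenoma cells. Because the T2 mean of 2.46 lay below the dim level, the level in T2 was lower by at least 49.4-fold, with T2 set at the dim level. The annotation places Sox2 inside the longer noncoding gene Sox2ot and it was not tested whether the probe set tells their transcripts apart.

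Nkx6-3, a homeobox factor of the distal stomach, had 2.94 and 3.65 (P21) and 3.53 (P23) in T2 adenoma cells, against 8.30 and 8.81 (P34) and 8.87 (P36) in the other adenoma cells. Its levels in co-cultured epithelium were 3.75 and 3.74, against 3.70 and 3.84 in monocultured epithelium, and fibroblasts lay between 3.30 and 3.56. As for Sox2, the 2 other adenoma animals stood alone, and the difference between T2 and other adenoma cells was -5.29. The other 12 samples lay between 3.30 and 3.84, a range smaller than the gap of 0.71 between the technical repeats of P21. The related factors Nkx6-1 and Nkx6-2 passed in none of the adenoma comparisons, and their group means lay between 3.56 and 3.81 in both adenoma groups and monocultured epithelium. Sox1 and Sox3, the closest relatives of Sox2, behaved likewise: Sox1 was too dim to be tested, and Sox3 averaged 3.69 in T2 adenoma cells, 3.57 in the other adenoma cells and 3.81 in monocultured epithelium.

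Foxq1, a forkhead factor that in mice is needed for Muc5ac in stomach surface cells, was already well above the array median in wild-type epithelium. It had 9.90 and 9.87 (P21) and 10.09 (P23) in T2 adenoma cells, against 10.86 and 10.90 (P34) and 10.70 (P36) in the other adenoma cells. It had 7.59 and 8.38 in co-cultured epithelium, against 7.11 and 8.51 in monocultured epithelium, and 4.53 to 5.50 in fibroblasts. The groups order as other adenoma, T2 adenoma, epithelium and fibroblasts, with both epithelial groups overlapping and both fibroblast groups overlapping. The 2nd probe set of Foxq1 gave smaller differences: -0.31 between T2 and other adenoma cells, against -0.80 for the brighter probe set, and 0.46 and 0.77 for T2 and other adenoma cells against monocultured epithelium, where the brighter gave 2.18 and 2.98. On that probe set the repeats of P21 lay at 5.77 and 6.70, a gap larger than each of the 3 differences it gave.

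Of the secreted proteins, Tff1, the trefoil peptide of stomach surface cells, had 5.38 and 5.01 (P21) and 4.98 (P23) in T2 adenoma cells, against 11.17 and 11.15 (P34) and 11.34 (P36) in the other adenoma cells. The difference of -6.16 was the 7th most negative of all genes tested and stands for a 71.6-fold lower level in T2. In co-cultured epithelium Tff1 had 5.87 and 6.14, against 4.61 and 5.01 in monocultured epithelium. Co-cultured epithelium therefore lay above T2 adenoma cells, and the level of T2 adenoma cells overlapped that of monocultured epithelium.

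Tff2, the trefoil peptide of mucous neck and gland cells, had 3.58 and 3.87 (P21) and 4.04 (P23) in T2 adenoma cells, against 5.88 and 5.97 (P34) and 7.30 (P36) in the other adenoma cells. Monocultured epithelium had 3.11 and 3.31. Muc6, the gel-forming mucin of the same cells, had 3.66 and 3.61 (P21) and 3.64 (P23) in T2 adenoma cells, against 4.57 and 4.36 (P34) and 6.70 (P36) in the other adenoma cells, and 3.66 and 3.52 in monocultured epithelium. Both genes were highest in P36. Without P36 the difference of Muc6 between T2 and other adenoma cells was -0.83, against -1.95 with it, and that of Tff2 was -2.04, against -2.73.

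Cblif, the intrinsic factor that carries vitamin B12 and is made in mice mainly by chief cells, had 2.68 and 3.15 (P21) and 2.51 (P23) in T2 adenoma cells, against 3.68 and 2.78 (P34) and 6.67 (P36) in the other adenoma cells. Monocultured epithelium had 3.11 in both animals. The level in P36 alone set the difference of -2.23: without P36 it was -0.51, which is smaller than the 0.89 between the repeat arrays of P34. Against monocultured epithelium the other adenoma cells differed by 1.83 with P36 and by 0.11 without it.

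P36 and P34 were alike in the transcription factors and in Tff1, with P36 minus P34 at -0.04 for Sox2, 0.31 for Nkx6-3, -0.18 for Foxq1 and 0.18 for Tff1. They were apart by at least 1 in Tff2 (1.38), Muc6 (2.24) and Cblif (3.44). Pgc, the precursor of the chief and mucous neck cell protease gastricsin and not one of the 10, had 10.42 in P36 and 6.88 in P34. Animals P23 and P21 were apart by less than 1 in all 10 genes.

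Gkn3, a gastrokine secreted in mice by mucous neck cells and stem-like cells of the stomach, had 5.57 and 5.93 (P21) and 5.74 (P23) in T2 adenoma cells, against 6.66 and 6.01 (P34) and 6.88 (P36) in the other adenoma cells. It had 2.97 and 2.63 in co-cultured epithelium, against 2.82 and 2.55 in monocultured epithelium, and 2.57 to 3.25 in fibroblasts. All 4 adenoma animals thus lay more than 2 above every wild-type culture. The difference between T2 and other adenoma cells was -0.86, of a size with the gap of 0.65 between both arrays of P34.

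Ctse, the aspartic protease cathepsin E of stomach surface epithelium, was high in wild-type small intestinal epithelium too. It had 10.43 and 10.59 (P21) and 10.80 (P23) in T2 adenoma cells, against 12.34 and 12.32 (P34) and 12.47 (P36) in the other adenoma cells. It had 8.66 and 9.15 in co-cultured epithelium, against 7.47 and 8.70 in monocultured epithelium, and 3.08 to 4.00 in fibroblasts. The adenoma groups did not overlap each other or the epithelial groups, and both epithelial groups overlapped.

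Vsig1, an immunoglobulin-like junction protein of the glandular stomach, had 9.17 and 9.33 (P21) and 8.98 (P23) in T2 adenoma cells, against 11.05 and 11.05 (P34) and 11.47 (P36) in the other adenoma cells. In wild-type epithelium it followed the animal: P30 had 8.58 in co-culture and 8.21 in monoculture, and P28 had 3.78 and 3.23. Against P30 alone the difference of T2 adenoma cells from monocultured epithelium was 0.91, where both animals together gave 3.40, and that of the other adenoma cells was 3.05, against 5.54. Pdx1, the homeobox factor of duodenum, pancreas and distal stomach, parted the same animals, with 6.01 in co-culture and 6.02 in monoculture of P30 and 3.48 and 3.94 in P28. The labels do not say from which stretch of the small intestine the crypts came, and P28 is also the animal whose arrays go against their label, so position, sex and animal cannot be told apart. Without P28 the differences of Ctse and Foxq1 between T2 adenoma cells and monocultured epithelium were 1.95 and 1.48, against 2.57 and 2.18 with it, and the differences of the other adenoma cells were 3.70 and 2.28, against 4.32 and 2.98.

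**Figure D2:**
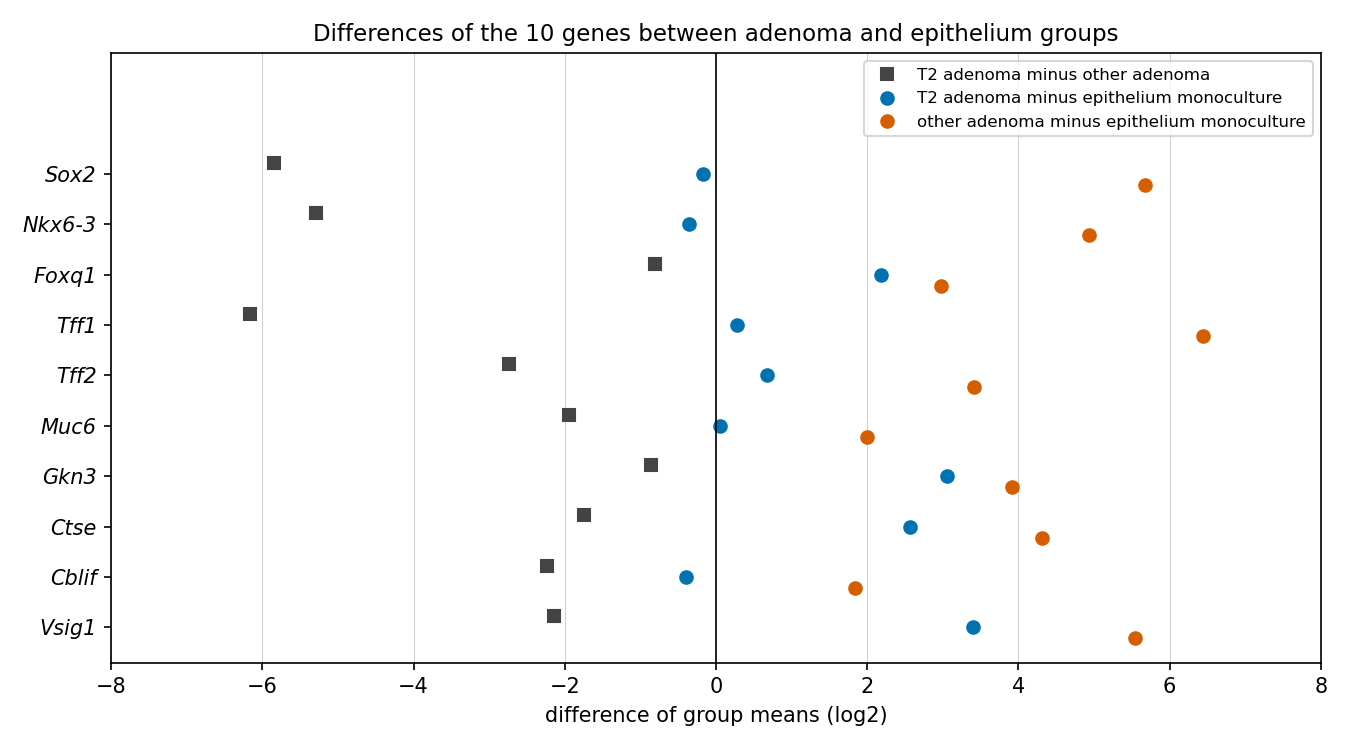
Differences of group means (horizontal axis, log2) for the 10 genes (vertical axis): T2 minus other adenoma cells as squares, and each adenoma group minus monocultured epithelium as circles. All 10 squares lie below 0, and the T2 circles lie above 2 for Foxq1, Gkn3, Ctse and Vsig1 and at most at 0.67 for the other genes.

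All 10 genes had every T2 adenoma animal below every other adenoma animal, a pattern that 26% of the genes tested showed, and 8 of 10 were lower by at least 1, as were 2.91% of all genes. Nkx6-3, Tff1 and Sox2 were lower by at least 3, as were 0.346% of all genes. The median difference of the 10 was -2.19, against 0.00 over all genes. In T2 adenoma cells 4 of 10 were higher than in monocultured epithelium by at least 1 (14.1% of all genes) and 2 by at least 3 (1.87%), with 5 higher and 2 lower without overlap (34.9% and 35.8%). In the other adenoma cells 10 of 10 were higher by at least 1 (14.2%) and 7 by at least 3 (2.01%), and all 10 were higher without overlap (35.3%). Because the genes were chosen with these contrasts known, the shares describe the choice and show nothing beyond it.

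Each gene's levels over the 14 biological samples correlated with the mean of the other 9 at Pearson's r between 0.61 (Cblif) and 0.92 (Tff2), a description over samples that share animals and groups. Among genes outside the 10, those closest to their mean level were Onecut3 (r = 0.98), Pik3c2g (0.98), Depp1 (0.97), the growth factor Bmp7 (0.97), the cytokine receptor Il18r1 (0.97) and the carbonic anhydrase Car2 (0.97). Car2 averaged 9.10 in T2 adenoma cells, 11.87 in the other adenoma cells and 6.89 in monocultured epithelium, and Bmp7 averaged 6.29, 8.20 and 5.09. The closest to Sox2 alone were A730046J19Rik, Muc5ac and Capn6 (r = 0.99 each). The closest to Nkx6-3 were Muc5ac, the claudin Cldn18 and Ankdd1b (r = 0.99 each), and the closest to Foxq1 were Susd1 (0.99), the forkhead factor Foxa2 (0.99) and Ciao2a (0.98). For Sox2 and Nkx6-3, 2 animals stood far above the other 12 samples, and the rank correlations were lower: 0.34, 0.25 and 0.57 for the 3 genes closest to Sox2, and 0.44, 0.62 and 0.55 for those closest to Nkx6-3. They were 0.87 to 0.96 for the 3 closest to Foxq1 and 0.89 to 0.96 for the 6 closest to the mean of the 10.

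Other stomach genes, which were tested with limma over 18223 genes at a Benjamini-Hochberg adjusted p under 0.05, differed between the adenoma groups mainly among the mucous cell genes. Of 23 tested genes of stomach mucous, chief and parietal cells, 11 were lower and 2 higher in T2 than in other adenoma cells and 10 did not pass, against 3.48% lower and 3.64% higher of all genes (7.12% in either direction). Their median difference was -0.38, against 0.00 over all genes. This list too was drawn up with earlier results of these data known.

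The mucous cell genes made up most of the count, with 8 of 11 lower and 2 higher. Muc1, a membrane mucin, averaged 3.50 in T2 and 11.92 in the other adenoma cells and was lower in T2 by -8.41 ± 0.45 (SE, n = 2 animals each; limma, adjusted p = 3.97e-07), a 341-fold difference. The stomach claudin Cldn18 was lower by -7.20 ± 0.23 (adjusted p = 8.71e-09), with 3.18 and 3.70 in T2 and 10.60 and 10.69 in the other adenoma animals. The surface mucin Muc5ac was lower by -5.78 ± 0.21 (adjusted p = 2.15e-08), with 3.03 and 3.07 in T2 and 8.51 and 9.14 in the other adenoma animals. Monocultured epithelium averaged 2.90, 3.05 and 3.03 for these 3 genes, and T2 adenoma cells did not pass against it in any of them. Mucl3, a mucin-like protein, was lower by -7.06 ± 0.32, and Anxa10, an annexin of stomach epithelium, by -4.24 ± 0.36, although monocultured epithelium had Anxa10 at a mean of 9.99, above the 7.40 of T2. The water channel Aqp5 was lower by -1.34 ± 0.25.

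2 mucous cell genes ran the other way. A4gnt, the transferase that adds the terminal sugar of gland mucin on Muc6, averaged 5.12 in T2 adenoma cells, against 1.95 in the other adenoma cells and 2.19 in monocultured epithelium. Both of these means lay below the dim level, so A4gnt was higher in T2 by at least 2.45, with the other adenoma cells set at the dim level (limma, adjusted p = 6.07e-07). It was thus high in the adenoma cells in which Muc6 was not. Capn9, a calpain of the digestive tract, was higher in T2 by 1.72 ± 0.28 (adjusted p = 0.00294), but lay below monocultured epithelium in both adenoma groups, with means of 5.77 in T2, 4.05 in the other adenoma cells and 8.38 in monocultured epithelium.

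Fewer chief and parietal cell genes passed. Of 4 tested chief cell genes only Pgc passed, lower in T2 by -4.09 ± 0.81 (adjusted p = 0.00929). It had 4.35 (P21) and 4.78 (P23) in T2. The other adenoma animals were far apart in Pgc, with 6.88 in P34 and 10.42 in P36, and the SE is pooled over all groups. The pepsinogen gene Pga5 and the chitinase gene Chia1 averaged between 2.35 and 2.51 in both adenoma groups. The gastric lipase gene Lipf was too dim to be tested, with means of 2.05 in T2, 2.14 in the other adenoma cells and 2.06 in monocultured epithelium. Of 8 parietal cell genes the ion transporters Slc9a4 (-3.60 ± 0.28) and Slc26a9 (-1.53 ± 0.19) were lower in T2. Slc26a9 averaged 6.78 in T2 and 8.31 in the other adenoma cells, against 3.39 in monocultured epithelium, and was higher than the monoculture in both. Atp4a and Atp4b, the subunits of the acid pump that defines parietal cells, averaged 3.08 and 3.05 in T2 and 3.14 and 3.06 in the other adenoma cells, below the array medians, and passed in no adenoma comparison. Of the 4 tested stomach endocrine genes none differed between the adenoma groups. Against monocultured epithelium 2 of the 4 were lower in each adenoma group (17.7% and 17.2% of all genes were lower). Ghrl averaged 2.94 in T2, 2.76 in the other adenoma cells and 7.28 in monocultured epithelium. The gastrin gene Gast averaged 5.06 in T2, 5.24 in the other adenoma cells and 4.97 in monocultured epithelium.

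Against monocultured epithelium, 5 of these 23 gland genes were higher and 5 lower in T2 adenoma cells, against 22.3% higher and 17.7% lower of all genes (40% in either direction). In the other adenoma cells 12 were higher and 4 lower, against 22.1% and 17.2% of all genes (39.3%). The 5 higher in T2 were A4gnt (at least 2.45), Slc26a9 (3.39 ± 0.19), Kcnq1 (2.75 ± 0.25), Slc9a4 (1.28 ± 0.28) and Mucl3 (1.13 ± 0.32). Without P28 and Pl_III, with P30 the only monocultured epithelium left, the difference of Mucl3 was 0.58. In the other adenoma cells Muc1 was higher by 9.01 ± 0.45, Mucl3 by 8.19 ± 0.32, Cldn18 by 7.59 ± 0.23 and Pgc by 5.65 ± 0.81. Each of the mucous, chief and parietal lists also held genes that averaged below monocultured epithelium. Capn8 of the mucous list averaged 3.46 in T2, 3.56 in the other adenoma cells and 5.53 in monocultured epithelium. Bhlha15 of the chief list averaged 4.77, 4.15 and 4.82, and Aqp4 of the parietal list 2.91, 3.29 and 4.36.

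**Figure D3:**
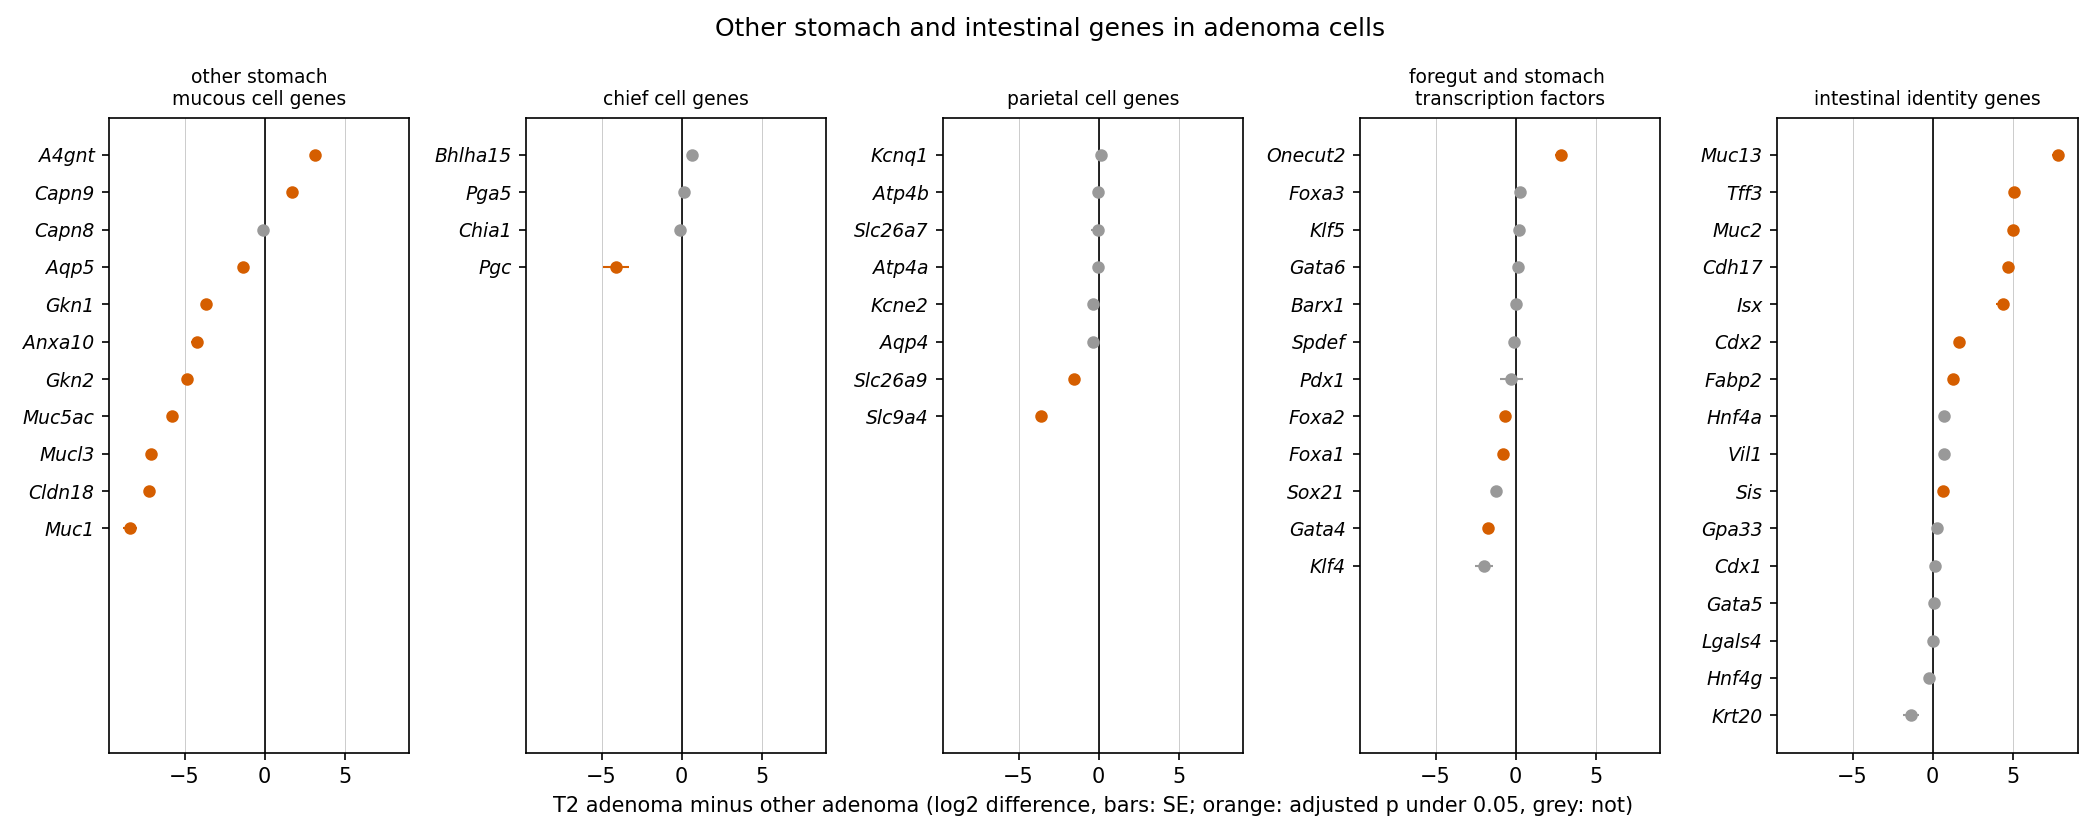
Difference of T2 minus other adenoma cells (horizontal axes, log2; bars, SE from limma, n = 2 animals each) for the tested genes of 5 lists (vertical axes). Orange points passed at an adjusted p under 0.05. Most mucous cell genes lie below 0, with Muc1 at -8.41, and the intestinal genes that passed lie above 0, with Muc13 at 7.81.

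Several of the 10 genes sit beside relatives in the genome, and some of these neighbours differed in the opposite direction between the adenoma groups. The annotation orders the trefoil genes as Tff3, Tff2 and Tff1 on chromosome 17, with no other protein-coding gene between them. Tff3, the trefoil peptide of intestinal goblet cells, averaged 9.91 in T2 adenoma cells, 4.83 in the other adenoma cells and 10.27 in monocultured epithelium. It was higher in T2 than in the other adenoma cells by 5.08 ± 0.22 (adjusted p = 6.83e-08), where Tff1 and Tff2 differed by -6.16 and -2.73.

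The mucin genes Muc6, Muc2, Muc5ac and Muc5b lie in that order on chromosome 7. Muc2, the gel-forming mucin of intestinal goblet cells, had 8.13 and 9.38 in T2 and 3.53 and 3.92 in the other adenoma animals, and was higher in T2 by 5.03 ± 0.34 (adjusted p = 3.52e-06). Its neighbours on either side, Muc6 and Muc5ac, differed by -1.95 and -5.78, and Muc5b, averaging 2.90 in T2 and 2.68 in the other adenoma cells, did not pass. Gkn1, Gkn2 and Gkn3 lie in that order on chromosome 6. Gkn1 averaged 3.48 in T2 and 7.16 in the other adenoma cells (-3.69 ± 0.26), and Gkn2 averaged 3.72 and 8.55 (-4.83 ± 0.20). T2 adenoma cells thus had Gkn3 at a mean of 5.74 while Gkn1 and Gkn2 did not pass against monocultured epithelium (-0.11 ± 0.26 and 0.33 ± 0.20).

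**Figure D4:**
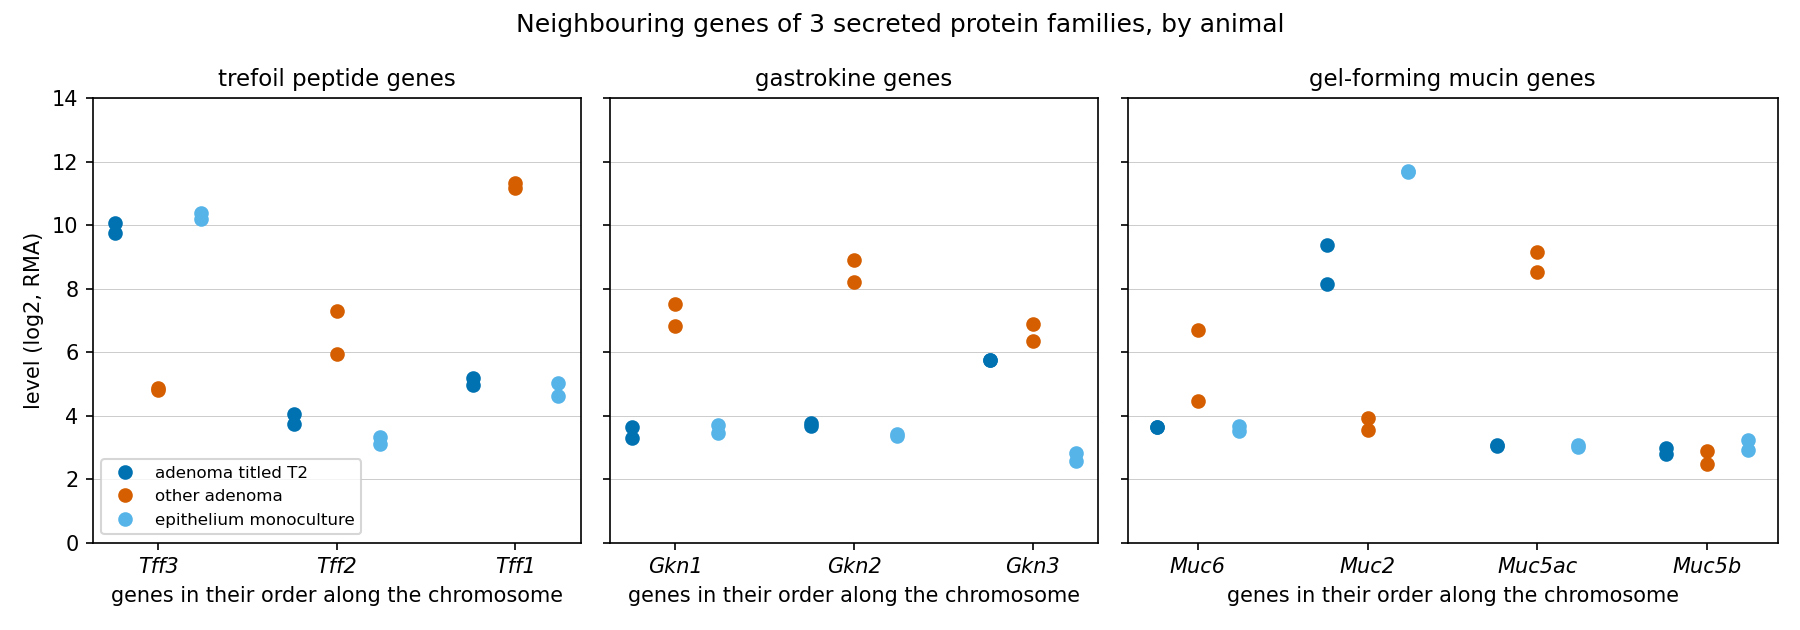
Levels (vertical axis, log2 RMA) of the trefoil, gastrokine and gel-forming mucin genes in their chromosomal order (horizontal axes), in T2 adenoma cells, other adenoma cells and monocultured epithelium. Points are animals. Tff3 and Muc2 are high in T2 and low in the other adenoma cells, the reverse of Tff1 and Muc5ac.

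Other relatives of the 10 gave a mixed picture. Vsig2, the closest listed relative of Vsig1, averaged 4.31 in T2 and 11.09 in the other adenoma cells and was lower in T2 by -6.78 ± 0.26 (adjusted p = 2.86e-08), whereas Vsig1 was high in both. The aspartic proteases Ctsd (0.19 ± 0.16) and Bace1 (0.04 ± 0.18) did not pass, and Bace2 was lower in T2 by -1.71 ± 0.34 (adjusted p = 0.00911). The genes that take up Cblif-bound vitamin B12 in the ileum were given beside it: Amn, a subunit of that receptor, averaged 3.77 in T2 and 3.67 in the other adenoma cells, against 8.21 in monocultured epithelium, and Cubn, the other subunit, 2.96 and 3.06, against 5.31. Both were lower than the monoculture in both adenoma groups, Amn by -4.44 ± 0.46 and -4.54 ± 0.46 and Cubn by -2.35 ± 0.61 and -2.24 ± 0.61. The monocultures were far apart in Cubn, with 6.69 in P28 and 3.92 in P30. Without P28 and Pl_III, with P30 the only monocultured epithelium left, the differences of Cubn were -0.96 in T2 and -0.86 in the other adenoma cells.

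Of 12 measured foregut and stomach transcription factors beside Sox2, Nkx6-3 and Foxq1, 3 were lower and 1 higher in T2 than in other adenoma cells (3.48% and 3.64% of all genes). Gata4, a factor of stomach and proximal intestine, was lower by -1.70 ± 0.24 (adjusted p = 0.00111), with 8.04 and 7.87 in T2 and 9.51 and 9.80 in the other adenoma animals, and monocultured epithelium at a mean of 9.76. The forkhead factors Foxa1 and Foxa2 were lower by -0.78 ± 0.15 and -0.66 ± 0.16. Onecut2 was higher in T2 by 2.85 ± 0.37 (adjusted p = 5.81e-04). The stomach and foregut factor Sox21 differed by -1.20 ± 0.36 (adjusted p = 0.0820) and Pdx1 by -0.26 ± 0.72 (adjusted p = 0.966). Sox21 averaged 8.50 in T2 and 9.70 in the other adenoma cells, against 4.81 in monocultured epithelium, and was higher than the monoculture in both, by 3.68 ± 0.36 and 4.88 ± 0.36. Against monocultured epithelium 4 of the 12 were higher and 3 lower in each adenoma group. Of all genes 22.3% were higher and 17.7% lower in T2, and 22.1% and 17.2% in the other adenoma cells. Pdx1 was among the higher ones of the 12, by 2.03 ± 0.72 in T2 and 2.29 ± 0.72 in the other adenoma cells. Without P28 and Pl_III, with P30 the only monocultured epithelium left, the differences of Pdx1 were 0.99 and 1.25. The count of 4 between the adenoma groups ranged from 2 to 5 when single samples were left out, and was 2 without P21 and 2 without P36. Without P28 and Pl_III the count changed too, although the adenoma means did not. Sox21, still at -1.20, then passed as lower.

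Of the genes of intestinal identity, those that passed in the adenoma comparison were all higher in T2. Of 16 measured, 8 were higher and 0 lower in T2 than in other adenoma cells (3.64% and 3.48% of all genes), with a median of 0.72, and 1 of the other 8, Krt20, differed by -1.35 ± 0.52 (adjusted p = 0.185). Without P28 and Pl_III some calls of this list changed, although the adenoma means did not. Krt20, still at -1.35, then passed as lower. Cdx2, the master factor of the intestine, had 8.52 and 8.46 in T2 and 7.04 and 6.67 in the other adenoma animals, against 9.49 and 9.29 in monocultured epithelium, and was higher in T2 by 1.63 ± 0.17 (adjusted p = 1.29e-04). The mucin Muc13 had 10.80 and 10.92 in T2 and 3.26 and 2.85 in the other adenoma animals (7.81 ± 0.38, adjusted p = 1.95e-07). The cadherin Cdh17 was higher in T2 by 4.71 ± 0.13 and the homeobox factor Isx by 4.37 ± 0.40. Cdx1 lay low in both, averaging 3.76 in T2 and 3.62 in the other adenoma cells, against 8.28 in monocultured epithelium.

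Against monocultured epithelium 12 of the 16 intestinal genes were lower and 1 higher in T2 adenoma cells, and 14 were lower and 1 higher in the other adenoma cells (17.7% and 17.2% of all genes were lower). The higher one was Gata5 in both, by 1.16 ± 0.24 and 1.08 ± 0.24. Cdx2 was lower by -0.90 ± 0.17 in T2 and by -2.54 ± 0.17 in the other adenoma cells. Cdx2 was at 6.67 or more in all 4 adenoma animals, against 3.10 to 3.69 in fibroblasts. In bulk RNA fewer cells of a type and less RNA per cell cannot be told apart, so whether single cells held both stomach and intestinal transcripts was not tested.

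Markers of other cells were examined beside these differences. The mean level of 10 epithelial markers was 10.99 to 11.05 in T2 adenoma cells, 9.92 to 10.13 in the other adenoma cells and 10.71 to 10.86 in monocultured epithelium. One of them, the claudin Cldn3, was higher in T2 than in other adenoma cells by 7.13 ± 0.24, while Epcam (0.94 ± 0.33, adjusted p = 0.139) and the other 8 did not pass. Without P28 and Pl_III Epcam passed too, although its difference was still 0.94. What part these markers have in the differences of the 10 genes was not tested. The 11 measured fibroblast markers averaged 3.47 to 3.52 in T2 and 3.64 to 3.85 in the other adenoma cells, against 10.85 to 11.06 in monocultured fibroblasts, and the 11 immune markers averaged 4.11 to 4.22 and 3.95 to 4.07, against 8.98 to 9.56 in monocultured fibroblasts. Both lists lay at 3.66 to 3.76 and 4.01 to 4.06 in monocultured epithelium. Of the fibroblast markers 1 was lower in T2 than in other adenoma cells (3.48% of all genes). Against monocultured epithelium 1 was lower in each adenoma group (17.7% and 17.2%), and 1 higher in the other adenoma cells (22.1%). Acta2 averaged 5.85 in T2, 6.84 in the other adenoma cells and 5.16 in monocultured epithelium, and Pdgfrb averaged 2.94, 3.21 and 4.02. Of the 11 immune markers, 2 were higher and 2 lower than monocultured epithelium in each adenoma group. The shares of all genes were 22.3% higher and 17.7% lower in T2, and 22.1% and 17.2% in the other adenoma cells. The higher immune markers were the macrophage marker Cd68, averaging 6.52 in T2, 6.36 in the other adenoma cells and 4.09 in monocultured epithelium, and the endotoxin co-receptor Cd14, averaging 8.50, 8.30 and 6.64. Other markers of the list averaged lower than monocultured epithelium. Itgam averaged 3.08 in T2, 3.01 in the other adenoma cells and 5.1 in monocultured epithelium. Lyz2 averaged 4.33, 2.81 and 4.39, and the macrophage marker Adgre1 averaged 2.29, 2.63 and 3.04. Ptprc, the pan-leukocyte marker, averaged 3.15 in T2, 3.28 in the other adenoma cells and 2.87 in monocultured epithelium. Genes of squamous forestomach, the keratinised part of the mouse stomach, averaged 5.03 to 5.21 in T2 and 4.37 to 4.45 in the other adenoma cells, against 3.50 to 3.85 in monocultured epithelium. Of the 9 tested, 4 were higher than the monoculture in T2 and 2 in the other adenoma cells (22.3% and 22.1% of all genes). Between the adenoma groups 1 was higher and 1 lower in T2 (3.64% and 3.48% of all genes). More of them passed as higher in T2 without P28 and Pl_III, although the adenoma means did not change. The keratin Krt4 averaged 9.42 in T2, 8.38 in the other adenoma cells and 6.20 in monocultured epithelium, and the keratin Krt6a averaged 6.83, 2.23 and 1.97. Trp63, the factor that defines squamous epithelium, averaged 2.92, 3.09 and 3.20. Ivl, another gene of this list, averaged 4.99 in T2, 6.25 in the other adenoma cells and 4.46 in monocultured epithelium. What part these genes have in the differences of the 10 was not tested either. Pancreatic acinar genes averaged 3.31 to 3.50 and 3.12 to 3.27.

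The co-culture comparisons asked whether any of the 10 genes responds when epithelium and myofibroblasts share their medium, and here they were tested as the design has it. Which values decided the choice of the 10 is not recorded and may include these, so no call on them in co-culture, nor the interaction, is independent evidence. In co-cultured epithelium Tff1 rose and the other 9 did not pass (1 of 10, against 3.61% of all genes called higher, 2% called lower and 5.6% in either direction). Tff1 averaged 6.01 in co-culture and 4.81 in monoculture, a difference of 1.19 ± 0.17 (SE, n = 2 animals each; limma, adjusted p = 0.00245), and it was higher in both animals. The call depended on how the spread was estimated: with both adenoma groups fitted as 1 group, or with only the 4 epithelial samples fitted, 0 of the 10 were called. It held without P28 and Pl_III, where the lone epithelial animal was assumed to vary like the other groups.

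Ctse had a positive difference in both animals, with 8.66 and 9.15 in co-culture, against 7.47 and 8.70 in monoculture, but did not pass (0.82 ± 0.39, adjusted p = 0.281). Tff2 differed by 0.32 ± 0.41, Muc6 by -0.11 ± 0.54, Foxq1 by 0.18 ± 0.43 and Gkn3 by 0.11 ± 0.21. Sox2 (-0.13 ± 0.21) and Nkx6-3 (-0.03 ± 0.15) lay at their low levels in both cultures. For Vsig1, whose 2 animals were far apart, the SE was 1.49 around a difference of 0.46, and for Cblif it was 0.76 around -0.42. Of the 23 other gland genes, 2 rose in co-cultured epithelium, against 3.61% of all genes. They were Mucl3, by 3.24 ± 0.32 (adjusted p = 3.82e-04), and Slc9a4, by 1.62 ± 0.28 (adjusted p = 0.00853). Slc9a4 did not pass without P28 and Pl_III. Among the transcription factors Foxa1 rose by 0.74 ± 0.15 (adjusted p = 0.0167, and 0.149 without P28 and Pl_III), and among the intestinal genes Isx by 3.20 ± 0.40 (adjusted p = 0.00151), while Cdx2 did not pass (0.01 ± 0.17). Squamous genes had 2 of 9 that rose, Krt4 by 3.47 ± 0.34 and Krt14 by 1.65 ± 0.42, against 3.61% of all genes. Krt14 did not pass without P28 and Pl_III.

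In co-cultured fibroblasts limma called 0 of the 10 genes, and 0% of all genes in either direction. This fit did not pair the cultures of 1 animal, whose deviations correlated at 0.51 to 0.79 in fibroblasts. The 0% therefore does not show that fibroblasts did not respond. At an unadjusted threshold of 0.05 there was 1 of the 10, Tff1, which averaged 3.89 in co-culture and 4.49 in monoculture (-0.60 ± 0.14, SE, n = 3 animals each; limma, adjusted p = 1). Its 3 co-culture levels of 3.83, 3.97 and 3.87 all lay below its monoculture levels of 4.47, 4.43 and 4.58, a pattern that 3.44% of all genes showed. Gkn3 did not overlap either, in the opposite direction, with 2.95, 3.25 and 2.89 in co-culture and 2.81, 2.57 and 2.71 in monoculture (0.34 ± 0.17, adjusted p = 1), a pattern that 3.53% of all genes showed. None of the 10 genes exceeded 5.50 in any fibroblast sample. The response of Tff1 in epithelium exceeded that in fibroblasts by 1.79 ± 0.21 (interaction, limma, adjusted p = 0.00290), and none of the other 9 passed that test.

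**Figure D5:**
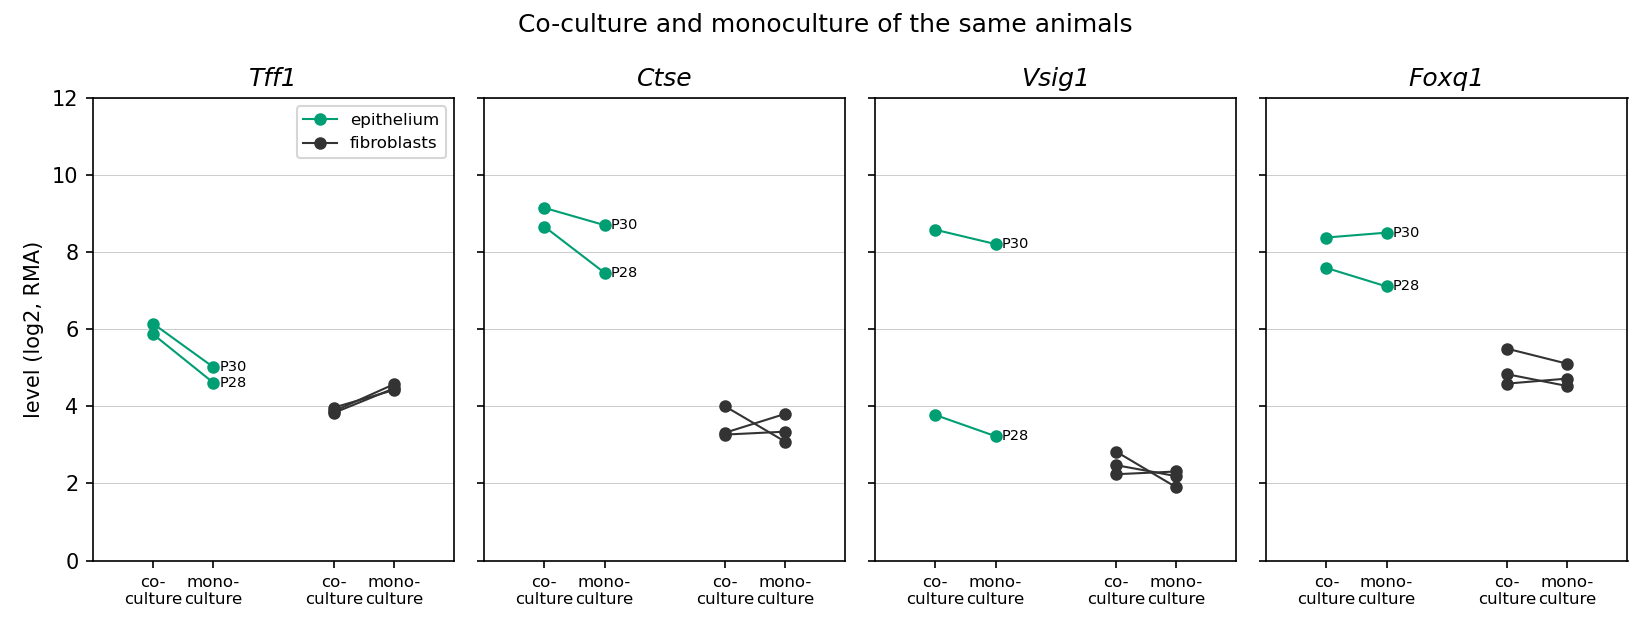
Levels (vertical axis, log2 RMA) of Tff1, Ctse, Vsig1 and Foxq1 in co-culture and monoculture (horizontal axes) of epithelium (green, animals P28 and P30) and fibroblasts (black). Lines join the cultures of 1 animal. Tff1 is higher in co-culture in both epithelial animals, and Vsig1 lies at 8.58 and 8.21 in P30 and at 3.78 and 3.23 in P28.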

How the data were processed

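RNA of 16 samples (14 biological samples of 9 animals, 2 of them run on 2 arrays) was measured on 1-colour arrays from 150 ng of RNA, per the labels' protocols. The deposited values are log2 levels per probe set made by the authors with RMA, per the submitters' processing notes, which combines background correction, quantile normalization and a summary over probes. RMA forces arrays to like distributions, so levels are relative, and the labels name no build for the array design. The number of arrays limits the precision.

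Of 41345 probe sets, 23521 had 1 gene symbol in the platform annotation, 1814 had several and 16010 had none. 0 symbols were updated. For genes with several probe sets the brightest on average was used, and technical repeats were averaged. Genes were left out if no group mean exceeded 2.67, the 30th percentile over probe sets, which left 18223 of 22180 genes. limma 3.58.1 in R 4.3.3 fitted the means of 6 groups, with adenoma animals split by the tag T2, and p-values were 2-sided and adjusted by Benjamini-Hochberg over all genes tested, with a threshold of 0.05. The labels do not say that the samples of a group are separate cultures beyond naming the animals. The p-values rest on a spread within groups that is pooled over the 6 groups, not on that of the compared groups alone. Co-culture and monoculture of 1 animal entered this fit as separate samples. The fit was tested on simulated data in which 200 genes were changed; in the comparison of T2 with other adenoma cells it recovered 44% of 2-fold and 86% of 4-fold changes among 18223 genes. Epithelium and fibroblast cultures are paired by the animals that the labels name: deviations from the group means of cultures of 1 animal correlated at 0.33 (P28 and P30) and at 0.51 to 0.79 (fibroblasts) over genes. The 3rd fibroblast monoculture carries Pl_III in its title and Pl_II in its source name, and the title was followed.

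The 10 genes and all lists were chosen with earlier results of these data known. The genes set to be named were all 10 and up to 6 genes of each list with the smallest p in each comparison. Cdx2, Hnf4a, Epcam, Col1a1, Ptprc and the relatives of the 10 were set too. So were the 6 genes closest in pattern to the mean of the 10 and the 3 closest to each of Sox2, Nkx6-3 and Foxq1. Not all of these are printed with values, Hnf4a and Col1a1 among those left out, so the genes printed are a selection. Any other listed gene in the text was chosen after its values were seen. Alternatives covered the filter, the normalization, the variance prior, the choice of probe set and array, the samples fitted, an animal block, each replicate left out and, added after the data were seen, the removal of P28 and Pl_III, for counts and named differences. Promoter windows, build GRCm38.p6, and gene order are RefSeq's, searched with Python 3.11.15. Figures were drawn with matplotlib 3.10.9.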

Additional observations from a re-analysis of the deposited data

Results flagged for a closer look

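Of 141 genes examined, 5 had 1 of the 4 adenoma animals far from the other 3, by the gap to its nearest neighbour relative to the whole range. Chance marks about 1 group in 20 in this way, and all 4 adenoma animals were treated as 1 group for it. None of the 10 stomach genes was among them, although Cblif had 6.67 in P36, against 2.51 to 3.23 in the other 3 animals. Gata5 had 10.11 in P36, against 10.24 to 10.26 in the other 3 animals. The pancreatic gene Ctrb1 had 4.86 in P23, against 3.54 to 3.66 in the other 3. Thy1, a fibroblast and lymphocyte marker, had 2.90 in P34, against 2.46 to 2.50. The macrophage marker Adgre1 had 2.93 in P36, against 2.29 to 2.33. Thy1 and Adgre1 thus lay near the dim level of 2.67 in all 4 animals. Cubn had 3.15 in P34, against 2.95 to 2.98.

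The response of Tff1 to co-culture differed between epithelium and fibroblasts by 1.79 ± 0.21 (interaction, limma, adjusted p = 0.00290). Tff1 was higher in co-culture in 2 of 2 epithelial animals and lower in 3 of 3 fibroblast animals. Tff1 is one of the 10 genes chosen with earlier results of these data known, so the test is not independent evidence.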

How the results depend on the processing

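The alternatives were tried on 9 counts of called genes and on the 30 adenoma differences of the 10 genes. The call of Tff1 in co-cultured epithelium (1 of 10 genes) was lost with only the groups compared (0) and with 5 groups, adenomas not split (0). It kept 1 call in each leave-one-out fit (1 to 1) and co-cultured fibroblasts kept 0 (0 to 0); where a group was left with 1 sample, that sample was assumed to vary like the other groups. With the animal as a replicate block, which pairs the cultures, 1 gene of the 10 was called in epithelium and 0 in fibroblasts, as without it, while calls over all genes in epithelium came to 1907, against 1021 without the block. The 4 transcription factors called between T2 and other adenoma cells became 2 with a difference of at least 1 required, and 2 to 5 when samples were left out (2 without P21, 2 without P36). Leaving out samples gave 11 to 13 gland genes in that comparison, 8 to 11 for T2 and 15 to 16 for other adenoma cells against monocultured epithelium, and 6 to 9, 11 to 13 and 14 to 15 intestinal genes. Without P28 and Pl_III, an alternative chosen after seeing the data, the transcription factor count rose, although neither animal enters the adenoma means. In all, 197 alternative counts stayed within 1.5 times the main count and 5 did not. Of the differences 566 moved by less than the replicate spread, and 7 moved by more. Some counted among the 566 still ranged widely, because their animals lay far apart. The difference from monocultured epithelium ranged from 0.91 to 5.89 for Vsig1 in T2 adenoma cells and from 0.11 to 3.55 for Cblif in the other adenoma cells. Between T2 and other adenoma cells Cblif ranged from -3.95 to -0.51 and Muc6 from -3.065 to -0.83. The differences of Sox2 (-0.49 to 0.14) and Muc6 (-0.02 to 0.12) between T2 adenoma cells and monocultured epithelium crossed 0. The 7 were 5 of Foxq1, from its 2nd probe set or the mean of both, and 2 of Nkx6-3, at -0.53 and -0.18 with either array of the repeats alone. The cause of the other shifts was not tested.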
